A study of Mus musculus with 52 samples.

Results

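The genes described here are 10 mouse genes of polyamine metabolism, Smox, Amd1, Amd2, Odc1, Srm, Sms, Sat1, Oaz1, Azin1 and Paox, among 55401 mouse genes listed in the count table. They were chosen by name, as the enzymes and regulators that make, interconvert and retire the polyamines, after lower Smox and Amd1 had been seen in muscle of transgenic mice. The muscle values of transgenic against wild-type mice are therefore given as a description with no test. The tissues were cerebral cortex, skeletal muscle (which muscle the labels do not say) and spinal cord, and their RNA was sequenced in 3 groups of mice. Transgenic mice carrying human profilin 1 with the C71G change, a mutation found in familial amyotrophic lateral sclerosis, had received an adeno-associated virus encoding an artificial microRNA (amiR) against Atxn2, the mouse ataxin-2 gene. Transgenic mice of the same kind had received vehicle, and wild-type FVB/NJ mice had also received vehicle. No group received a control vector, so the amiR and the vector itself cannot be told apart, and the labels do not name the promoter of the transgene. Each tissue had 6 libraries per group, with 3 males and 3 females, apart from 5 (3 males and 2 females) for the muscle of vehicle-treated transgenic mice and 5 (3 males and 2 females) for the cortex of wild-type mice. All wild-type mice were 36 weeks old, and 11 transgenic libraries came from mice of 38 or 39 weeks, of which 9 were females. The labels tie neither tissues to animals nor replicate numbers to litters or days, so the p-values below measure the spread between these samples.

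The 52 libraries held 66.5 M to 111.9 M counts each, and the RNA integrity number was 7.1 to 8.3. Human PFN1 had 19040 to 109735 counts in transgenic libraries and 0 or 1 in wild-type libraries. Atxn2 averaged 72.5 ± 3.61 CPM (counts per M counts of the library) in amiR-treated cord and 110 ± 2.84 in vehicle-treated transgenic cord (SD, n = 6 each), with 83.2 ± 7.25 and 102 ± 7.78 CPM in cortex. In muscle Atxn2 averaged 61.7 ± 4.63 CPM with the amiR and 66.0 ± 3.33 with vehicle, and the muscle libraries of amiR-treated mice held 1 to 5 vector counts, against 2533 to 8971 in cord and cortex. The title and the library name of 4 spinal cord libraries give opposite treatments, and the vector counts matched the title in 4 of 4. Of the cord libraries, amiR replicate 2 stood apart, with 602.9 CPM of summed muscle fibre markers and 192.6 CPM of adipocyte markers, against 6.31 to 101.4 CPM of fibre markers in the other 17 libraries. Vehicle-treated transgenic replicate 1 had 41.3 CPM of adipocyte, 1201 CPM of Schwann cell and 280.8 CPM of fibroblast markers, and replicate 6 of that group had 915.5 CPM of Schwann cell and 230.5 CPM of fibroblast markers. No other cord library passed 0.306 CPM of adipocyte or 712.1 CPM of Schwann cell markers, and of fibroblast markers amiR replicate 2 had 220.5 CPM and the rest at most 116.9 CPM. Muscle fibre markers summed to at least 67157 CPM in every muscle library, and no more than 35.4 CPM in any cortex library.

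Polyamines (putrescine, spermidine and spermine) are small positively charged molecules that bind RNA and DNA and are needed for translation and growth. Ornithine decarboxylase (Odc1) makes putrescine, S-adenosylmethionine decarboxylase (Amd1) supplies the aminopropyl groups, and spermidine synthase (Srm) and spermine synthase (Sms) add them. Spermine oxidase (Smox) turns spermine directly back into spermidine, while the acetyltransferase Sat1 and the oxidase Paox do so by way of acetylated polyamines. Antizyme (Oaz1) binds ornithine decarboxylase and sends it to the proteasome, and antizyme inhibitor (Azin1) captures antizyme. In mouse skeletal muscle Smox is known as a gene whose RNA is low in denervated and other wasting muscle.

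Amd1 and Amd2 are close copies, and their sequences are shown first because they limit how the Amd2 values can be read. Amd1 (GRCm38 chromosome 10, 40287458 to 40302186, minus strand) has 8 exons in its compared transcript, whereas Amd2 (chromosome 10, 35708675 to 35711892, minus strand) has 1 exon. Their coding sequences have 1002 bases each and differ at a single base, G796C, counted from the first coding base, with Amd1's base given first. The stretch of coding bases 679 to 798 around that difference, with the base at position 796 in capitals, reads as follows in the transcripts of the GENCODE M21 annotation.
Amd1: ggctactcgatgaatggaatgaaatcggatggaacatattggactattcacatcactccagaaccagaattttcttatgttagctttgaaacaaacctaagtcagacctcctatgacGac
Amd2: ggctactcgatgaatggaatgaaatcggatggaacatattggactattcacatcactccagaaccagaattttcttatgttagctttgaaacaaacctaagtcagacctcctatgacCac
Over 3204 aligned transcript bases the 2 copies were 99.56% identical, and 72.9% of the windows of 100 bases in Amd2 occurred exactly in Amd1. Expected counts divide ambiguous reads between such copies, and Amd2 held 5.54 to 6.89% of the pair's counts in muscle, 7.54 to 9.32% in cord and 8.12 to 9.71% in cortex. The Amd2 values are therefore uncertain wherever they are printed, and they are not independent of those of Amd1.

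Outside the transcribed copies the sequences differ. The windows below are the 250 bases before each RefSeq start (GRCm38.p6, minus strand), at chr10:40302189-40302438 for Amd1 and chr10:35711892-35712141 for Amd2. They are shown to compare the copies before their starts. Because ambiguous reads are divided between the copies, the joint movement of their counts says nothing of these windows, whose part was not tested. Capitals mark a GC box in Amd1 (letters GGGCGG on either strand) and a CCAAT box in Amd2 (letters CCAAT on either strand, here read on the opposite strand).
Amd1: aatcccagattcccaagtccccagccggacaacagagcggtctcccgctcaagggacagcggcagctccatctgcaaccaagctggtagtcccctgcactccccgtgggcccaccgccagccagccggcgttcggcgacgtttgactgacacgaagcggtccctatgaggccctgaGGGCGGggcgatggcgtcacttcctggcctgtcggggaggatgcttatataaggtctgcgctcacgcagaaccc
Amd2: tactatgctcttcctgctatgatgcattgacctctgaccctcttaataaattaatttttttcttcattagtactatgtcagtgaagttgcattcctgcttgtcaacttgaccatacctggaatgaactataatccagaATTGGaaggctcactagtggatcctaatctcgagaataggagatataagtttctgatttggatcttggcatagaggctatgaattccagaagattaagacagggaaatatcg
The Amd1 window was 64.4% G and C and the Amd2 window 37.6%. Of 32851 mouse promoter windows of that length, 32.7% held a GC box and 33.8% a CCAAT box.

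In muscle, vehicle-treated transgenic mice had far less RNA of Smox, Amd1 and Amd2 than wild-type mice, and transgenic females had more of Odc1, Azin1 and Sat1 than wild-type females. Srm, Sms, Paox and Oaz1 differed by less. All 10 genes passed the filter on low counts in every tissue. Levels in this account are CPM scaled by the trimmed mean of M-values (TMM) within a tissue unless another scale is named, and fold changes are log2 values from the fit over all genes. In whole muscle, fewer cells of a type and less RNA per cell cannot be told apart.

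For the genes of synthesis, Amd1 had 167.4, 133.3 and 169.1 CPM in male and 65.7 and 54.4 CPM in female vehicle-treated transgenic muscle. In wild-type muscle Amd1 had 1147, 793.2 and 1438 CPM in males and 168.9, 153.7 and 212.5 CPM in females. Within each sex every transgenic library was below every wild-type library, but transgenic males overlapped with wild-type females. The fitted difference with sex as a term was -2.28 (SE 0.23), with -2.85 (SE 0.22) in males and -1.57 (SE 0.24) in females. Amd2 stood at -2.14 (SE 0.22), at levels of 3.9 to 12.3 CPM in transgenic and 10.5 to 84.4 CPM in wild-type muscle.

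Odc1 had 135.2, 202.4 and 219.2 CPM in male transgenic muscle, against 199.5, 168.8 and 245.5 CPM in male wild-type muscle. In females Odc1 had 147.6 and 121.8 CPM in transgenic and 48.1, 48.6 and 69.0 CPM in wild-type muscle. The male groups overlapped, and both transgenic females lay above all wild-type females. The log2 difference was -0.14 (SE 0.26) in males and 1.29 (SE 0.29) in females. Srm, at 4.18 to 5.88 CPM in transgenic and 4.31 to 4.89 CPM in wild-type muscle, differed by 0.13 (SE 0.08). Sms averaged 115 ± 16.5 CPM in male transgenic and 153 ± 15.9 CPM in male wild-type muscle (SD, n = 3 each), without overlap, while its female groups overlapped.

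For the genes that break spermine and spermidine down, Smox had 16.4, 16.2 and 21 CPM in male and 11.2 and 10.6 CPM in female transgenic muscle. Wild-type muscle had 143.4, 127.5 and 200.5 CPM of Smox in males and 24.6, 30.5 and 47.0 CPM in females. No vehicle-treated transgenic library reached the lowest wild-type library, and the 3 wild-type males stood far above all other muscle libraries. The log2 difference was -2.49 (SE 0.28), with -3.14 (SE 0.24) in males, an 8.8-fold lower level, and -1.64 (SE 0.27) in females. Paox was lower too, at 2.95 to 3.55 CPM in transgenic and 3.96 to 4.5 CPM in wild-type muscle, with a log2 difference of -0.35 (SE 0.07). Sat1 averaged 28.8 ± 0.451 CPM in female transgenic (SD, n = 2) and 19.4 ± 0.496 CPM in female wild-type muscle (SD, n = 3), while the males overlapped at 19.9 to 23.6 and 19.5 to 21.2 CPM.

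The regulators of ornithine decarboxylase differed less. Azin1 had 80.6 and 47.4 CPM in female transgenic and 33.2, 33.4 and 31.5 CPM in female wild-type muscle. The higher of the transgenic females lay far from every other muscle library. The log2 difference of Azin1 was 0.97 (SE 0.18) in females and 0.14 (SE 0.16) in males, whose groups overlapped. Oaz1, the most abundant regulator, had 220.8 to 231.6 CPM in transgenic and 227.5 to 281.9 CPM in wild-type muscle, a difference of -0.17 (SE 0.07).

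**Figure D1:**
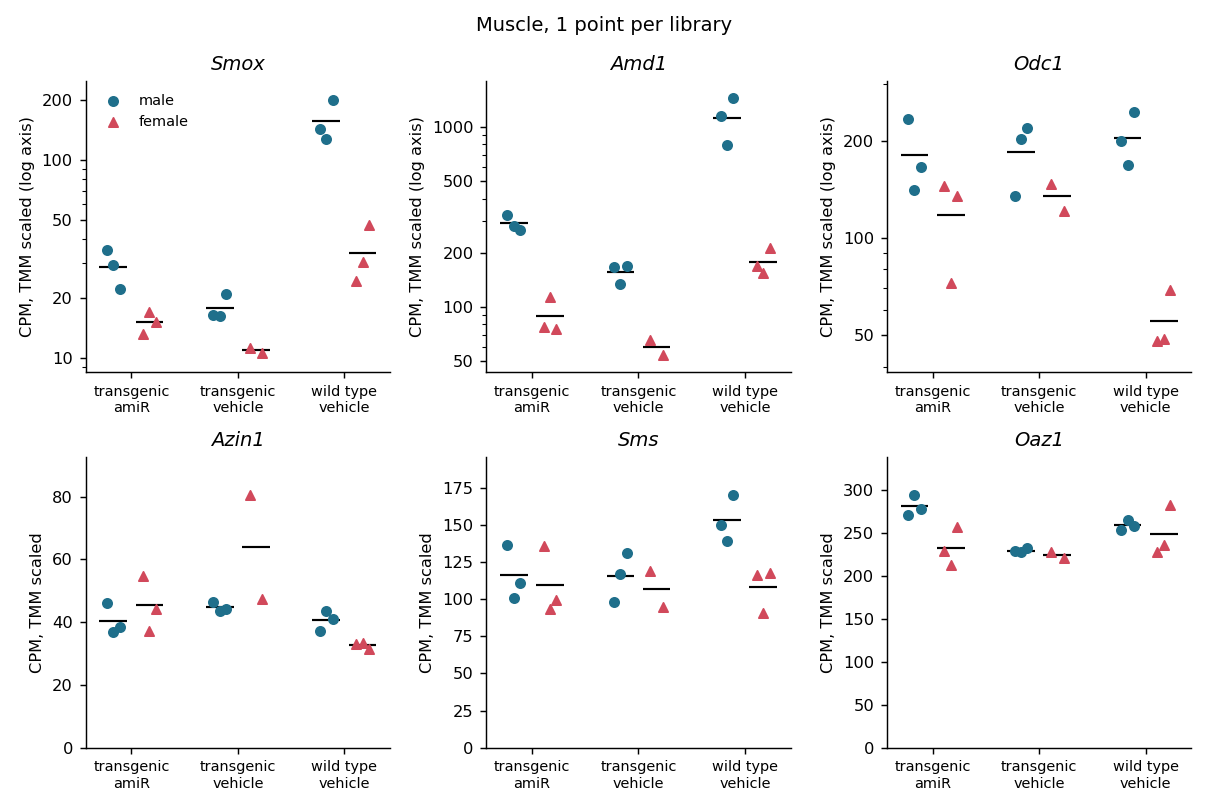
Scaled CPM of 6 polyamine genes in each muscle library, on log axes for Smox, Amd1 and Odc1 and on linear axes from 0 for Azin1, Sms and Oaz1; circles are males, triangles females, and bars the mean of that group and sex. Smox and Amd1 of wild-type males, at 127.5 to 200.5 and 793.2 to 1438 CPM, stand above all other libraries, while Odc1 is lowest in wild-type females, at 48.1 to 69.0 CPM.

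Of the 10 genes, 4 had a positive and 6 a negative difference between vehicle-treated transgenic and wild-type muscle, with a median of -0.20 against 0.01 over the 16949 genes tested. Of all genes tested 50.5% passed an adjusted p of 0.05 in this comparison, and 12.7% differed by over 2-fold. When library totals replaced TMM scaling, the median of all genes moved to 0.35, and Oaz1 and Sms turned to 0.17 and 0.10. Under that scaling Smox stood at -2.15, Amd1 at -1.94 and Paox at -0.02, and Odc1, Azin1 and Sat1 at 0.82, 0.85 and 0.64. The male groups of Azin1 then no longer overlapped, at 45.9 to 51.3 CPM in transgenic and 32.7 to 37.4 CPM in wild-type muscle. The same held for Sat1 in males, at 21.9 to 26.8 and 16.8 to 18.7 CPM. Srm was also apart over both sexes, at 4.74 to 6.48 and 3.73 to 4.58 CPM. The male groups of Sms overlapped instead, at 108.2 to 136.3 and 118.7 to 146.5 CPM. The 10 most abundant genes took 24.1 to 27.4% of counts in vehicle-treated transgenic and 28.8 to 30.4% in wild-type muscle.

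Markers of other cells moved with the genotype in muscle as well. All 6 macrophage markers and all 4 fibroblast markers were called higher in vehicle-treated transgenic than in wild-type muscle, with summed levels of 46.0 to 51.6 against 7.17 to 28.7 CPM and of 859.7 to 1805 against 220.0 to 671.2 CPM. Of 8 muscle fibre markers, 3 were called higher and 4 lower, and their sum was 67157 to 80774 CPM in transgenic and 101523 to 121376 CPM in wild-type muscle. None of these markers was at 0 in any group. Satellite cell markers were called higher in 3 of 4, as was the 1 T cell marker tested, and 1 of 4 endothelium markers was called lower. Of adipocyte and Schwann cell markers 0 of 4 each were called. The part of all these cells in the levels of the polyamine genes was not tested.

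The sexes of mice differed in some of these genes in muscle. This comparison did not enter the choice of the genes, but its wild-type and vehicle-treated transgenic libraries are those of the choosing comparison. Its p-values may therefore not be independent of that choice. In amiR-treated muscle alone, the group outside the choosing comparison, Amd1 and its copy Amd2 were called, while Smox and Odc1 were not, as given below. Over the 3 groups together, with group as a term, 4 of the 10 genes were called higher in males by edgeR's quasi-likelihood test with Benjamini-Hochberg adjustment over all genes, where 3.99% of genes tested were called higher in males. Amd1 was higher by 1.95 (SE 0.18, adjusted p = 5.43e-06), Amd2 by 1.88 (SE 0.17, adjusted p = 3.63e-06), Smox by 1.32 (SE 0.21, adjusted p = 0.00112) and Odc1 by 1.01 (SE 0.22, adjusted p = 0.0103). Sms at 0.24 (adjusted p = 0.187), Oaz1 at 0.13 (adjusted p = 0.184) and Sat1 at -0.22 (adjusted p = 0.146) did not pass. Srm, Paox and Azin1 differed by -0.05, 0.06 and -0.10. The median over the 10 genes was 0.18, against 0.00 over all genes. None of the 8 muscle fibre markers and none of the 6 macrophage markers was called by sex, while 1 of 4 satellite cell markers was called lower in males, and 1 of 4 endothelium markers, 1 of 4 cord position markers and the 1 neuron marker tested were called higher. Their part in the sex differences was not tested.

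Within wild-type muscle alone, a comparison added after seeing the data, the same 4 genes were called higher in males, where 1.52% of genes tested were. These libraries are also those of the choosing comparison, so the values and p in them are a description. Amd1 averaged 1126 ± 323 CPM in males and 178 ± 30.5 CPM in females, a 6.31-fold higher level (log2 2.66, SE 0.22, adjusted p = 6.63e-06). Smox averaged 157 ± 38.4 CPM in males and 34.0 ± 11.6 CPM in females, 4.62-fold higher (log2 2.21, SE 0.23, adjusted p = 6.37e-05). Odc1 averaged 205 ± 38.6 CPM in males and 55.2 ± 11.9 CPM in females, 3.70-fold higher (log2 1.89, SE 0.27, adjusted p = 0.00114; SD, n = 3 in each of these groups, edgeR). For Amd1, Smox and Odc1 alike every male lay above every female. Spermine synthase, Sms, was without overlap too, at 138.8 to 170.2 CPM in males and 90.5 to 118 CPM in females, but did not pass (log2 0.50, adjusted p = 0.144 by edgeR).

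Within the transgenic groups the male level was nearer the female level. In amiR-treated muscle Amd1 was higher in males by 1.71 (SE 0.21, adjusted p = 0.000678 by edgeR) and Amd2 by 1.70 (adjusted p = 0.000519), where 0.679% of genes were higher in males, while Smox at 0.93 (adjusted p = 0.0724) and Odc1 at 0.62 (adjusted p = 0.309) did not pass. In vehicle-treated transgenic muscle Amd1 was higher in males by 1.38 (SE 0.24, adjusted p = 0.0126 by edgeR) and Amd2 by 1.3 (adjusted p = 0.0146), where 0.549% of genes were higher. Smox at 0.71 (adjusted p = 0.244) and Odc1 at 0.46 (adjusted p = 0.577) did not pass there. The vehicle-treated libraries are also those of the choosing comparison, so their values and p are a description too. The Amd1 call in vehicle-treated transgenic muscle was lost without replicate 1, 2 or 5 of that group (adjusted p = 0.0672, 0.191 and 0.0525), and the Amd2 call also without replicate 3 (adjusted p = 0.0516). The transgene difference in males minus that in females was -1.50 (SE 0.34) for Smox, -1.43 (SE 0.39) for Odc1, -1.27 (SE 0.31) for Amd1 and -0.83 (SE 0.24) for Azin1, given as a description because it uses the choosing comparison. All 3 muscle libraries of mice older than 36 weeks were from transgenic females, so age and sex are partly joined within those groups.

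**Figure D2:**
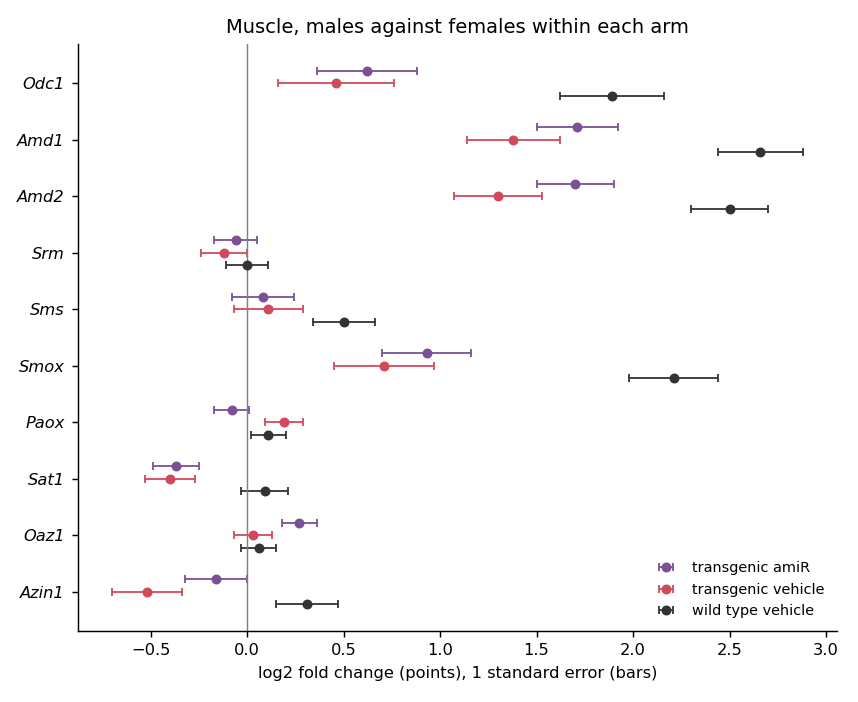
Male minus female log2 difference of each of the 10 genes in muscle, within amiR-treated transgenic, vehicle-treated transgenic and wild-type mice, with bars of 1 standard error. Amd1, Amd2, Smox and Odc1 reach 2.66, 2.50, 2.21 and 1.89 in wild-type muscle, and the Amd pair lies at 1.3 to 1.71 in the transgenic groups.

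Between the amiR and vehicle in transgenic muscle, none of the 10 genes passed the test. The vehicle-treated libraries here are also those of the comparison that chose the genes, so for genes chosen as low in them a higher level with the amiR is partly fixed by the choice, and the values and p below are a description. Amd1 had 324.6, 280.8 and 269.2 CPM in amiR-treated males, against 167.4, 133.3 and 169.1 CPM in vehicle-treated males. In females Amd1 had 77.5, 114.2 and 75.8 CPM with the amiR and 65.7 and 54.4 CPM with vehicle. Within each sex all amiR libraries lay above all vehicle libraries, although the groups overlap when the sexes are mixed. The log2 difference was 0.77 (SE 0.22, 95% interval 0.34 to 1.2, adjusted p = 0.085 by edgeR).

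Smox had 34.9, 29.3 and 22.3 CPM in amiR-treated and 16.4, 16.2 and 21 CPM in vehicle-treated males, and 13.2, 17 and 15.1 against 11.2 and 10.6 CPM in females. Here, too, the treated libraries of each sex lay above the vehicle libraries of that sex, with a log2 difference of 0.63 (SE 0.26, adjusted p = 0.204 by edgeR). Paox had 3.61 to 4.29 CPM with the amiR and 2.95 to 3.55 CPM with vehicle, without overlap over both sexes (log2 0.22, SE 0.07, adjusted p = 0.114 by edgeR). With library totals in place of TMM the Paox groups overlapped, at 3.69 to 4.51 CPM with the amiR and 3.47 to 3.97 CPM with vehicle (log2 0.08, adjusted p = 0.472). Amd2 at 0.66 (adjusted p = 0.11) and Oaz1 at 0.18 (adjusted p = 0.168) were also positive, and Odc1, Srm, Sms, Sat1 and Azin1 lay between -0.29 and 0.04. In all, 0 of the 10 genes were called by edgeR, where 1.12% of genes tested were, and 5 had an unadjusted p under 0.05. DESeq2 called 3, namely Amd1, Amd2 and Paox (adjusted p = 0.0139, 0.0336 and 0.047), and edgeR fitted on these groups alone called Amd1, Amd2 and Smox (adjusted p = 0.0331, 0.0374 and 0.0374). Markers of other cells moved in the same comparison. Muscle fibre markers summed to 80889 to 89909 CPM with the amiR and 67157 to 80774 CPM with vehicle, with 1 of 8 called higher. Fibroblast markers summed to 321.8 to 783.8 CPM with the amiR and 859.7 to 1805 CPM with vehicle, with 1 of 4 called lower, and 1 of 4 satellite cell markers was called lower. Macrophage markers summed to 17 to 40.4 CPM with the amiR and 46.0 to 51.6 CPM with vehicle, with 0 of 6 called. Their part in the levels of Amd1, Smox and Paox was not tested.

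Split by sex, in a comparison added after seeing the data, the amiR difference of Amd1 was 0.90 (adjusted p = 0.224 by edgeR) in males and 0.57 (adjusted p = 0.288) in females. The difference between the sexes was 0.33 (SE 0.31, 95% interval -0.27 to 0.93, adjusted p = 0.896). None of the 10 genes was called in either sex by edgeR, where 0.0% of genes were called in males and 0.366% in females, with 4 and 3 genes at an unadjusted p under 0.05, and 2 and 1 called by DESeq2. For the difference between the sexes, 0 genes were called and 0 of the 10 had an unadjusted p under 0.05. Against wild-type muscle, amiR-treated transgenic muscle had log2 differences of -1.87 (SE 0.25) for Smox, -1.51 (SE 0.21) for Amd1, -1.49 (SE 0.20) for Amd2 and 0.40 (SE 0.26) for Odc1. These are given without a test because they use the wild-type libraries of the choosing comparison, in which 35.2% of all genes were called.

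Across the 17 muscle libraries, after the mean of each group and sex was removed, Smox and Amd1 varied together with a Pearson r of 0.73, while Odc1 correlated with Smox at 0.406 and with Amd1 at 0.0755. The genes most like Smox among 12264 compared were Fkbpl (0.955), Dhdds (0.921), Copz1 (0.912), Jagn1 (0.912) and Mta1 (0.89). Those most like Amd1 were its copy Amd2 (0.979), Tdrp (0.884), Trim24 (0.873), Pds5b (0.871) and Rnf141 (0.87). The values rest on log2 CPM with 0.5 added, and the points share libraries and depth.

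Further genes of the pathway were tested in the same fit. Of a list of 31 further genes, 23 could be tested, and 3 were called higher and 12 lower in vehicle-treated transgenic than in wild-type muscle, where 50.5% of all genes tested were called, with a median of -0.23. Atp13a3, a polyamine transporter of the P5B ATPase family, averaged 105 ± 21.7 CPM in transgenic (SD, n = 5) and 9.91 ± 1.27 CPM in wild-type muscle (SD, n = 6; log2 3.36, SE 0.23, adjusted p = 2.97e-08 by edgeR). Agmat, named for agmatinase activity, averaged 2.21 ± 0.467 CPM in transgenic and 0.115 ± 0.0801 CPM in wild-type muscle (log2 4.29, adjusted p = 3.93e-07 by edgeR). For Atp13a3 and Agmat the groups did not overlap. Atp13a2, the lysosomal polyamine exporter, fell by 0.67 (adjusted p = 3.21e-06 by edgeR), and the methionine salvage enzymes Adi1 and Enoph1, which recover the sulfur by-product of polyamine synthesis, fell by 0.52 (adjusted p = 2.12e-06) and 0.47 (adjusted p = 0.000185). Of the 12 lower genes, 6 differed by less than the 0.35 by which library totals moved the median of all genes.

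With the amiR, 4 of the 23 genes were higher and 6 lower than in wild-type muscle, where 35.2% of all genes were called. Among them were Atp13a3 at 3.20 (adjusted p = 6.32e-08 by edgeR), Agmat at 4.10 (adjusted p = 1.35e-06), Atp13a2 at -0.50 (adjusted p = 6.24e-05), the transporter Slc47a1 at -0.74 (adjusted p = 6.37e-05) and Adi1 at -0.33 (adjusted p = 0.000169). Between the amiR and vehicle 0 of the 23 were called by edgeR. By sex, Adi1 at 0.33 (adjusted p = 0.00025 by edgeR) and Mat2a, an S-adenosylmethionine synthase subunit, at 0.37 (adjusted p = 0.0118) were higher in males, and Slc47a1 at -0.38 (adjusted p = 0.0165) was lower.

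A second list, of which 11 genes are given here, set the polyamine genes beside other programmes of muscle. Some genes known to rise on loss of innervation were higher in transgenic muscle, where 50.5% of all genes tested were called. The log2 differences were 4.96 for the fetal acetylcholine receptor subunit Chrng, 4.40 for the transcription factor Runx1 and 4.22 for the growth arrest gene Gadd45a. They were 3.93 for the receptor subunit Chrna1, 3.68 for the myogenic factor Myog, 3.12 for the cell cycle inhibitor Cdkn1a and 2.93 for the adhesion molecule Ncam1. For these genes the adjusted p was between 5.79e-09 and 1.68e-07 by edgeR. Myc, a known activator of Odc1, rose by 1.13 (adjusted p = 0.0017), and Ppargc1a, a regulator of mitochondrial genes, fell by 0.50 (adjusted p = 0.00237). On the same list, the atrophy ubiquitin ligases Fbxo32 at -0.03 (adjusted p = 0.907 by edgeR) and Trim63 at 0.23 (adjusted p = 0.312) did not pass. The list was chosen with earlier results of these data known, and loss of innervation was not tested. Of these 11 genes, Cdkn1a at -0.70 (adjusted p = 0.0151 by edgeR) was called between the sexes, lower in males, and 0 were called between the amiR and vehicle.

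In spinal cord, vehicle-treated transgenic mice had more Sat1 and Odc1 RNA and less Sms and Amd1 RNA than wild-type mice, by at most 1.56-fold. Thus 4 of 10 genes were called by edgeR, where 36.8% of genes tested were, and 6 had an unadjusted p under 0.05. The median over the 10 genes was -0.09, against 0.00 over all genes.

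Sat1, the acetyltransferase that begins polyamine breakdown, had a lowest value of 87.0, a median of 94.6 and a highest value of 103 CPM in the 6 transgenic vehicle libraries. In wild-type cord Sat1 had 50.9, 61.5 and 65.4 CPM. Every transgenic library lay above every wild-type library, in both sexes (log2 0.64, SE 0.10, adjusted p = 0.000101 by edgeR). Odc1 had 73.1, 78.5 and 83.3 CPM as lowest, median and highest in transgenic and 63.5, 66.0 and 73.2 CPM in wild-type cord. The groups touched at a single pair of libraries, a transgenic female and a wild-type male, and within each sex they did not overlap (log2 0.23, SE 0.04, adjusted p = 0.000356 by edgeR).

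Sms, whose product makes spermine, had 130, 137 and 141 CPM in transgenic and 167, 172 and 179 CPM in wild-type cord. The groups were wholly apart (log2 -0.34, SE 0.03, adjusted p = 8.74e-07 by edgeR). Amd1 had 148, 152 and 169.2 CPM in transgenic and 169.3, 172 and 179 CPM in wild-type cord. The highest transgenic library came just under the lowest wild-type library (log2 -0.16, SE 0.04, adjusted p = 0.00264 by edgeR), and with library totals in place of TMM scaling, which moved the median of all genes to 0.10, Amd1 did not pass (-0.06, adjusted p = 0.324). Smox at -0.16 (adjusted p = 0.0539) and Azin1 at -0.19 (adjusted p = 0.0721) did not pass, and Oaz1, Srm, Amd2 and Paox lay between -0.11 and -0.01. The calls of Sat1, Odc1 and Sms held in 30 of 30 other settings.

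**Figure D3:**
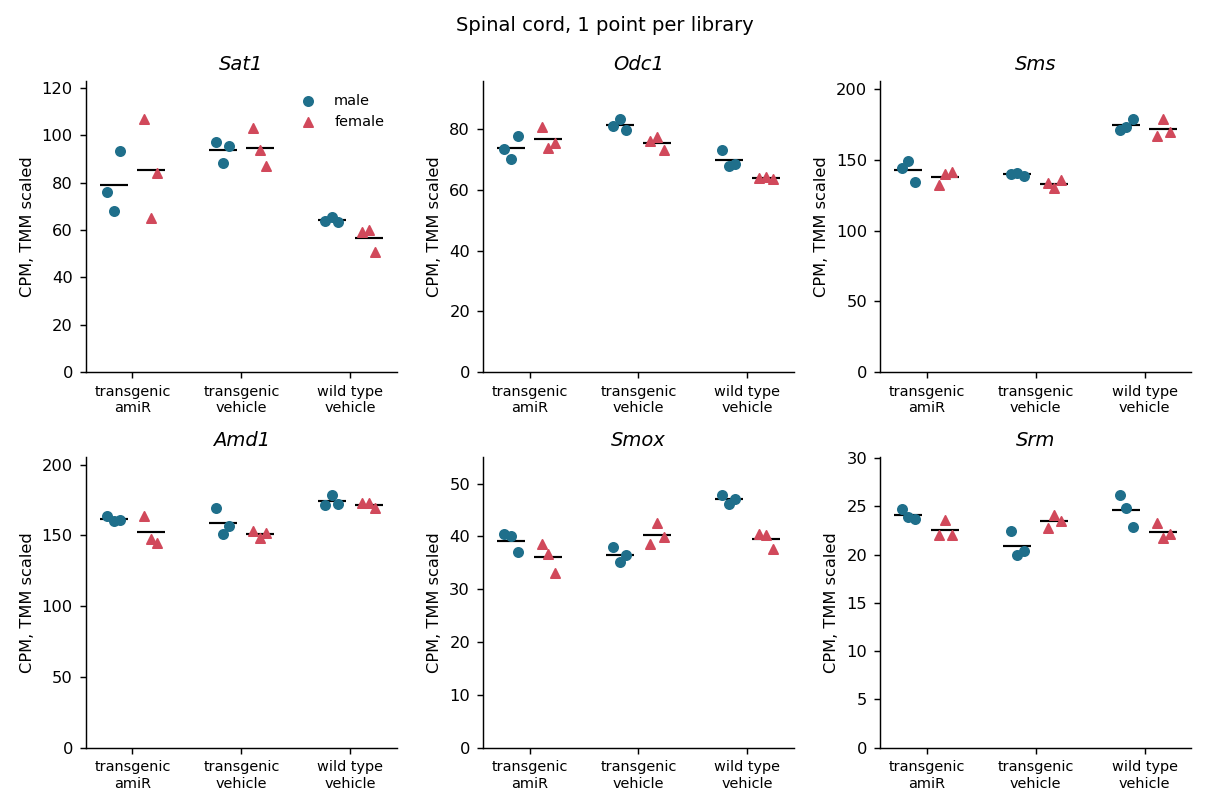
Scaled CPM of 6 polyamine genes in each spinal cord library on axes from 0; circles are males, triangles females, and bars the mean of that group and sex. Sat1 lies at 87.0 to 103 CPM in vehicle-treated transgenic and 50.9 to 65.4 CPM in wild-type libraries, with the amiR libraries spread from 65.0 to 107 CPM, and Sms lies at 130 to 141 CPM in vehicle-treated transgenic and 167 to 179 CPM in wild-type libraries.

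Cell markers shifted along with these genes in cord. All 6 macrophage and microglia markers were called higher in vehicle-treated transgenic than in wild-type cord, with sums of 498 to 627 against 122 to 178 CPM, and 3 of 4 astrocyte markers were called higher, with sums of 5599 to 6623 against 1874 to 3422 CPM. Of 4 neuron markers 3 were called lower, with sums of 2962 to 3477 against 4384 to 5000 CPM, and all 4 motor neuron markers were called lower, with sums of 20.4 to 96.0 against 96.8 to 127 CPM. None of these markers was at 0. All 4 T cell markers were called higher as well. Lower calls were made for 1 of 4 endothelium markers and the 1 satellite cell marker tested, and 0 of 4 oligodendrocyte markers were called. The part of these cells in the Sat1, Odc1, Sms and Amd1 differences was not tested.

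With the amiR, the cord levels of the 10 genes were close to those of vehicle-treated transgenic cord. By edgeR, 0 of 10 were called between the amiR and vehicle, where 5.11% of genes tested were, 0 had an unadjusted p under 0.05, and DESeq2 called 0. Sat1 had 65.0, 80.0 and 107 CPM as lowest, median and highest with the amiR, against 87.0, 94.6 and 103 CPM with vehicle (log2 -0.20, SE 0.10, 95% interval -0.40 to 0.00, adjusted p = 0.258 by edgeR). The amiR libraries spread on both sides of the vehicle libraries. The library with 107 CPM of Sat1 had 629 CPM of summed macrophage and microglia markers and the library with 65.0 CPM had 236 CPM of them. That second library is the one that stood apart by its fibre and adipocyte markers. The remaining amiR libraries had 274.4 to 493.7 CPM of the macrophage and microglia markers. The part of these cells in the spread of Sat1 was not tested.

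Set against wild-type cord, amiR-treated cord had 6 of 10 genes called by edgeR, where 25.5% of genes tested were. Sat1 was higher by 0.45 (adjusted p = 0.0035) and Odc1 by 0.17 (adjusted p = 0.00614), and Sms fell by 0.30 (adjusted p = 8.26e-06), Amd1 by 0.14 (adjusted p = 0.00935), Amd2 by 0.14 (adjusted p = 0.0218) and Smox by 0.20 (adjusted p = 0.0303). This comparison shares its wild-type libraries with the one before. The Smox call was lost without wild-type replicate 4, 5 or 6 or amiR replicate 3 or 6, and the Amd2 call without wild-type replicate 2 or amiR replicate 6. With library totals Amd1, Amd2 and Smox were not called, which left 3 genes.

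Males and females of all groups together did not differ in any of the 10 genes in cord by edgeR, where 0.0936% of genes tested did, and 0 had an unadjusted p under 0.05. The transgene difference, however, was not the same in the sexes for Smox and Srm, which were 2 of the 10, where 10.3% of genes tested were called. All vehicle-treated transgenic cord libraries of mice older than 36 weeks were from females, so age and sex are partly joined here too. Smox had 38.0, 35.1 and 36.4 CPM in male transgenic and 47.9, 46.2 and 47.0 CPM in male wild-type cord. In females Smox had 38.6, 42.5 and 39.9 CPM in transgenic and 40.5, 40.2 and 37.6 CPM in wild-type cord. The male groups were apart and the female groups overlapped, with log2 differences of -0.37 in males and 0.03 in females, which differed by -0.40 (SE 0.08, adjusted p = 0.0238 by edgeR).

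Srm averaged 20.9 ± 1.3 CPM in male transgenic and 24.6 ± 1.65 CPM in male wild-type cord, and 23.5 ± 0.652 against 22.4 ± 0.843 CPM in females (SD, n = 3 each). The difference between the sexes was -0.30 (SE 0.08, adjusted p = 0.0357 by edgeR). Without the 4 libraries with conflicting names the differences were -0.34 for Smox and -0.21 for Srm. That fit keeps only replicate 4 of the vehicle-treated transgenic males, so calls in it are not given. Leaving out wild-type replicate 3, 4 or 5 or vehicle-treated transgenic replicate 1, 2, 5 or 6 ended the Smox call, with adjusted p of 0.053 to 0.078 by edgeR. The share of all genes was no more stable, since the 2085 genes called became 0 to 7 without 1 of these libraries. The same libraries and wild-type replicates 1 and 2 ended the Srm call.

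In cortex the 10 genes stayed near their wild-type levels. By edgeR 0 of 10 were called between vehicle-treated transgenic and wild-type cortex, where 0.0247% of genes tested were, and 0 had an unadjusted p under 0.05. Sat1 had 39.3, 43.3 and 48.4 CPM as lowest, median and highest in transgenic cortex, against 38.9, 44.7, 43.3, 49.5 and 44.4 CPM in the 5 wild-type libraries. The groups overlapped throughout (log2 -0.01, SE 0.08). None of the 6 macrophage and microglia markers was called there, with sums of 151 to 211 CPM in transgenic and 148 to 182 CPM in wild-type cortex.

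Between the amiR and vehicle in cortex, 0 of 10 genes were called by edgeR, where 0.0197% of genes tested were, and 3 had an unadjusted p under 0.05, namely Odc1 at 0.15 (adjusted p = 0.355), Srm at 0.15 (adjusted p = 0.25) and Sat1 at 0.17 (adjusted p = 0.425). Against wild type 0 were called, where 1.12% were, and Odc1 and Srm were the 2 with an unadjusted p under 0.05. Odc1 had 34.5, 35.8 and 42.0 CPM as lowest, median and highest with the amiR, against 31.8, 30.3, 34.0, 30.6 and 31.0 CPM in wild-type cortex (log2 0.23, SE 0.06, adjusted p = 0.072 by edgeR). Srm had 23.5, 25.4 and 27.5 CPM with the amiR, against 22.6, 21.4, 23.4, 21.5 and 22.9 CPM in wild-type cortex (log2 0.18, SE 0.05, adjusted p = 0.0784 by edgeR). For both genes all amiR libraries lay above all wild-type libraries, and DESeq2 called both. By sex 0 of 10 genes were called in cortex, where 0.133% of genes tested were, and 0 had an unadjusted p under 0.05.

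A fit of all 52 libraries tested whether the transgene difference was unequal between cord and cortex. Sat1 was the 1 gene of 10 called, where 9.05% of genes tested were, with a log2 difference larger in cord by 0.64 (SE 0.15, adjusted p = 0.00349 by edgeR). Sms differed by -0.35 (SE 0.13, adjusted p = 0.0765 by edgeR), and DESeq2 called it as well (adjusted p = 0.021). For the amiR difference, 0 of the 10 genes were called between cord and cortex, cord and muscle, or cortex and muscle, where 0.0583%, 2.01% and 1.8% of genes tested were. The contrasts with muscle use vehicle-treated libraries of the choosing comparison and are a description. A single sex term covers all tissues in this fit, so genes that differ by sex in muscle, such as Amd1 and Smox, have wide standard errors in it.

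**Figure D4:**
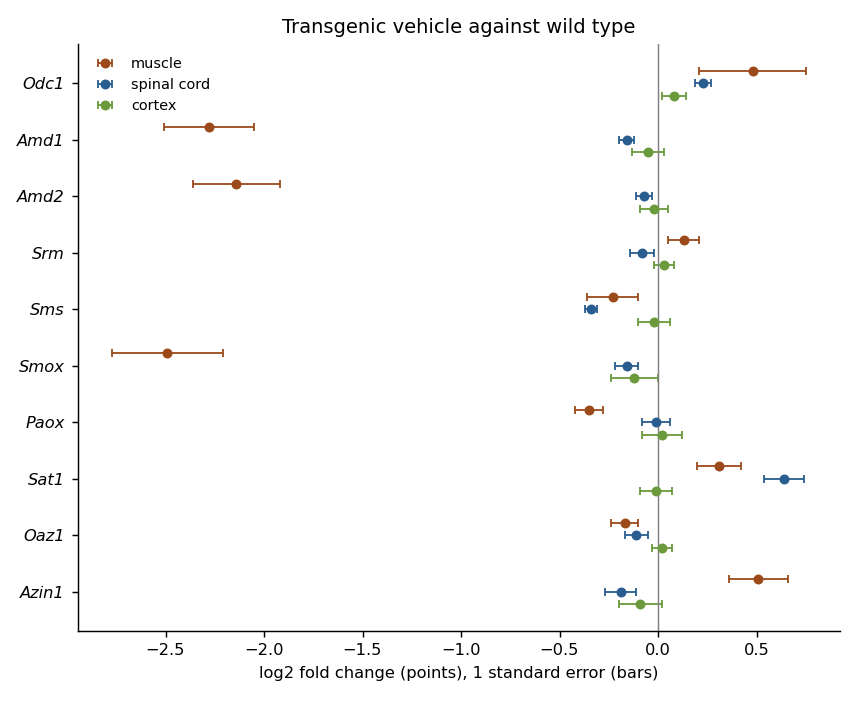
Log2 difference of vehicle-treated transgenic minus wild-type mice for the 10 genes in muscle, spinal cord and cortex, with bars of 1 standard error. Smox, Amd1 and Amd2 lie at -2.49, -2.28 and -2.14 in muscle (a description, since muscle chose them), Sat1 at 0.64 in cord, and all cortex values lie between -0.12 and 0.08.

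All 10 genes were expressed in all 3 tissues of wild-type mice, at different levels. Per kilobase of exon, on a scale common to all libraries, the order in muscle was Amd1 with a mean of 311 and a range of 75.6 to 673 CPM per kilobase, Oaz1 with 168 (147 to 187), Odc1 with 64.5 (23.4 to 120) and Smox with 41.4 (10.5 to 85.3). Amd1 and Oaz1 overlapped in that order, as did Odc1, Smox and Sms. These means pool sexes that differ, and the order was another in females, where Oaz1 averaged 164.9 CPM per kilobase, Amd1 85.5, Sms 30.5, Odc1 27.6 and Smox 14.9. In males Amd1 averaged 535.9 CPM per kilobase, Oaz1 170.6, Odc1 101.3, Smox 68.0 and Sms 42.9. In spinal cord Oaz1 led with 43.9 (39.3 to 46.6), above Amd1 with 37.5 (36.5 to 38.8) and Sms with 22.2 (21.4 to 23.1), without overlap between these neighbours. Cortex had Oaz1 at 43.8 (42.4 to 45.7) and Amd1 at 38.2 (34.6 to 41.6) in the same order. Paox was the lowest of the 10 in each tissue, at 1.02 to 1.63 CPM per kilobase over all wild-type libraries.

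Muscle against cord called 9 of 10 genes by edgeR, where 85.7% of genes tested were, and muscle against cortex also 9, where 86.1% were, so the count is near that of all genes. The wild-type muscle libraries are also those of the choosing comparison, and the muscle differences are given as a description. Amd1 was higher in muscle than in cord by 2.80 (SE 0.32), Amd2 by 2.28 (SE 0.31), Smox by 2.14 (SE 0.25), Odc1 by 2.00 (SE 0.22), Oaz1 by 1.93 (SE 0.06) and Sms by 0.72 (SE 0.09). Srm at -1.19 (SE 0.06), Azin1 at -0.96 (SE 0.12) and Sat1 at -0.46 (SE 0.10) were lower in muscle. The side of Sms depended on the scaling. As CPM of library totals Sms averaged 115.8 in wild-type muscle and 167.5 in cord, lower in muscle like Srm. Amd1, Amd2, Smox, Odc1 and Oaz1 stayed higher in muscle on that scale over both sexes. In females alone, Smox was lower in muscle (30.7 against 38.0 CPM), as were Odc1 (50.2 against 61.6) and Amd1 (162.5 against 165.5). Cord against cortex called 4, where 60.4% of genes tested were, with Odc1 higher in cord by 1.06 (SE 0.22), Sms by 0.63 (SE 0.09), Paox by 0.54 (SE 0.08) and Sat1 by 0.39 (SE 0.11).

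**Figure D5:**
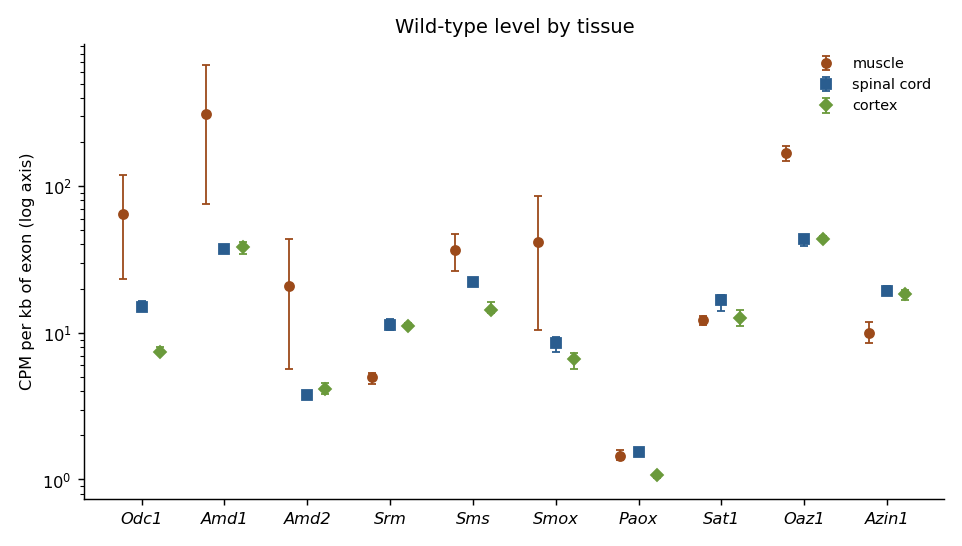
Levels of the 10 genes in wild-type muscle, spinal cord and cortex in CPM per kilobase of exon on a log axis; points are means and bars run from the lowest to the highest library. Amd1 and Smox span 75.6 to 673 and 10.5 to 85.3 in muscle, where the sexes differ, and narrow ranges in cord and cortex.

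Among the further genes of the pathway in cord, 26 of 31 could be tested, and 3 were higher and 6 lower in vehicle-treated transgenic than in wild-type cord, a share near the 36.8% called of all genes. Sat2, a relative of Sat1, rose by 0.51 (adjusted p = 1.35e-05 by edgeR), and Oat, which links ornithine to glutamate and proline, rose by 0.29 (adjusted p = 5.59e-05). The second antizyme inhibitor Azin2 fell by 0.30 (adjusted p = 4.88e-05 by edgeR), the translation factor gene Eif5a2, whose product is modified with a piece of spermidine, fell by 0.62 (adjusted p = 0.00109), and the salvage enzyme gene Mtap fell by 0.27 (adjusted p = 0.00119). In amiR-treated against wild-type cord 3 were higher and 3 lower, where 25.5% of all genes were called, including Azin2 at -0.26 (adjusted p = 0.000265 by edgeR), Eif5a2 at -0.71 (adjusted p = 0.000608), Oat at 0.21 (adjusted p = 0.00169), Ahcy, which clears S-adenosylhomocysteine, at 0.21 (adjusted p = 0.00275) and Atp13a2 at -0.26 (adjusted p = 0.00281). Between the amiR and vehicle 0 of 26 were called in cord, and in cortex 0 of 27 were called in any of these comparisons.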

How the data were processed

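Poly(A) RNA libraries (Kapa mRNA HyperPrep, paired-end, NovaSeq) were prepared from tissue powder, per the labels' protocols. The authors deposited 1 table of expected counts per gene (not whole numbers in every cell), and RSEM 1.3.2, STAR 2.7.2d, DESeq2 1.34.0 and bcl2fastq 2.20 are named in the submitters' processing notes, as are the builds GRCm38 and GRCh38. The settings of these tools, strand included, are not given here. Of 55510 lines, 109 name no mouse gene (at most 0.167% of a library's counts) and were left out. Of the 55401 mouse genes, 55141 matched GENCODE M21.

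The deposited expected counts were rounded to whole numbers. In each tissue edgeR 4.0.16 (R 4.3.3, limma 3.58.1) filtered genes by group (filterByExpr), scaled by TMM and fitted group plus sex with the quasi-likelihood test, leaving 20307 genes in cord, 20278 in cortex and 16949 in muscle, with Benjamini-Hochberg adjustment over all of them and a threshold of 0.05. A fit with sex by group gave the differences between sexes, and a joint fit of 52 libraries (22316 genes) those between tissues. DESeq2 1.42.0 was an alternative, beside other scalings, filters, covariates, sample sets and leaving out each library. The fits were tested on simulated data. Sequences came from GENCODE M21 and RefSeq (GRCm38.p6).

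The 10 genes and all lists were chosen with earlier results of these data known. The transgene difference in muscle chose them, so it, its split by sex and amiR against wild type there were not tested, although a test of the split had been planned. Comparisons within a sex or a group were added after seeing the data. The text names all 10 genes, up to 5 called genes per comparison of a pathway list of 31, 11 context genes in muscle (1 more of that list is not reported here), and the 5 genes most like Smox and Amd1 in muscle (mean of at least 1 CPM, no clone-style name). Replicate numbers were not treated as pairs, since in no tissue and pair of groups did all libraries with the same title number deviate together. That check could not exclude pairing. Intervals cover the spread in the fit, and the library totals leave each of the 10 genes well above single counts.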

Additional observations from a re-analysis of the deposited data

Results flagged for a closer look

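In 3 results a difference was unequal between sexes or tissues. The transgene difference of Smox in cord was lower in males than in females by -0.40 on the log2 scale, and that of Srm by -0.30, and both rest on single libraries as given above. Age and sex are partly joined in both. The transgene difference of Sat1 was larger in cord than in cortex by 0.64.

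Single libraries stood apart within a group of 4 to 10 in 6 of the 90 sets of values checked, and chance flags about 1 in 20. The measure is the gap to the nearest library as a share of the group's range. In muscle, Azin1 was highest in vehicle-treated transgenic replicate 1, a female (80.6 CPM, share 0.898), and Srm was highest in amiR-treated replicate 3, a female (5.13 CPM, share 0.677). In cord, Amd2 was lowest in vehicle-treated transgenic replicate 1, a female (13.6 CPM, share 0.669), and in amiR-treated replicate 6, a male (13.1 CPM, share 0.695). In cortex, Odc1 was highest in amiR-treated replicate 5, a male (42.0 CPM, share 0.64), and Sms in wild-type replicate 1, a female (122 CPM, share 0.727).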

How the results depend on the processing

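The fits were repeated under each alternative of tool, scaling, filter, covariate and sample set. Of the counts of called genes, and the Amd1 and Smox values in muscle, 531 stayed near their main value and 39 moved (by over 1.5 times for a count, over 1 SD for a value). Library totals in place of TMM gave -1.94 for Amd1 and -2.15 for Smox between vehicle-treated transgenic and wild-type muscle, and turned the sign of Oaz1 there (0.17, and 0.16 in males) and of Paox in males (0.01). They also left 3 genes called in amiR-treated against wild-type cord and called 1 gene, Srm, for the amiR difference in cortex minus muscle. DESeq2 called 2 genes in amiR-treated against wild-type cortex, 3 for the amiR in muscle (2 in males, 1 in females) and 2 for the transgene difference in cord minus cortex. Fitting only the groups compared called 3 genes for the amiR in muscle and 4 for the sex difference of the transgene effect in cord. That last count was 1 with RNA integrity as a covariate, 1 without the filter and 0 to 4 without single libraries (4 without amiR replicate 2, which stood apart). Summing genes with their annotated pseudogenes moved no recomputed count by over 1.5 times. Mice of 36 weeks alone gave 7 called genes for the transgene in cord and 1 for sex in vehicle-treated transgenic muscle. This muscle count was 0 to 2 without single libraries and 1, by construction, with the Amd copies summed, as in amiR-treated muscle (1). Without single libraries, 0 to 1 gene was called for the amiR in cord (1 without amiR replicate 1), for amiR-treated against wild-type cortex (1 without vehicle-treated transgenic replicate 4) and for sex in cortex (1 without vehicle-treated transgenic replicate 2). With the replicate number as a block, 0 genes were called by sex in muscle, over all groups and within wild-type, vehicle-treated or amiR-treated transgenic mice, and Odc1 turned to -0.09, because in muscle the numbers other than 3 hold 1 sex each. Correlations of libraries with the same title number ran from -0.59 to 0.58. Between amiR-treated and vehicle-treated transgenic cortex they ran from 0.0 to 0.58, and every other pair of groups had some negative values. Title numbers in vehicle-treated transgenic muscle and wild-type cortex do not follow those of the library names, so this check could not exclude pairing. The count of all genes called for the amiR in muscle was 190, 969 with DESeq2, 965 without wild-type replicate 3 and 1 with mice of 36 weeks alone. Depth did not limit the 10 genes, the lowest of which, Paox in muscle, had 2.95 CPM or more.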
